A study of Drosophila melanogaster with 14 samples.

Results

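The bithorax complex of Drosophila melanogaster is a stretch of chromosome arm 3R that holds 3 Hox genes, Ubx, abd-A and Abd-B. On build dm3 the complex was taken as the window from 12480000 to 12810000 of 3R, a length of 330 kb, and every peak that shared at least 1 bp with it was kept. This gave 88 of the 29537 peaks in 5 deposited lists: 18 of 6328 GAF peaks and 7 of 6491 Yki peaks from wing imaginal discs, and 44 of 6470 GAF peaks, 16 of 3749 Yki peaks and 3 of 6499 H3K4me3 peaks from embryos. Ubx was placed at about 12482000 to 12560000, abd-A at about 12632000 to 12656000 and Abd-B at about 12752000 to 12797000. These gene ends are approximate, and as background all 3 genes are transcribed towards lower coordinates, so each gene's start was taken as its higher end.

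The lists came from chromatin immunoprecipitation and sequencing (ChIP-seq), which pulls chromatin down with an antibody against a protein or histone mark and lists as peaks the positions where recovered DNA fragments concentrate. All samples were of the Iso1 strain, with no mutant or treatment. The wing disc, the sac of larval epithelium that forms the wing and part of the thorax, was dissected from wandering third-instar larvae and gave 2 GAF, 1 Yki and 2 input libraries. Whole embryos were collected 8 to 16 hours after egg laying and gave 3 GAF, 3 Yki, 2 H3K4me3 and 1 input library. Each antibody and tissue had 1 list, so no spread between replicates could be measured, no test was run between tissues, and sequencing depth is unknown. Whole embryos mix all cell types and segments, so a site bound in few cells and a site bound weakly in many cannot be told apart.

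Hox genes set segment identity: Ubx acts in the posterior thorax and first abdominal segment, abd-A in the middle abdomen and Abd-B in the posterior abdomen. Their regulatory DNA spreads over the introns of Ubx and the long intergenic stretches, and includes Polycomb response elements (PREs) and boundary elements. GAGA factor (GAF), the product of the gene Trithorax-like, recognises GA-rich DNA and is known at many promoters, PREs and boundaries of this complex. Yorkie (Yki) is the growth-promoting coactivator of the Hippo pathway and reaches DNA through partners such as Scalloped. H3K4me3, histone H3 with 3 methyl groups on lysine 4, is found just inside genes whose promoters are active. In most cells of the wing disc the complex is held silent by Polycomb proteins, whereas in embryos of this age each gene is active in its own set of segments.

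The complex was dense in embryo GAF peaks and poor in H3K4me3 peaks and disc Yki peaks. To give a scale, arms 2L, 2R, 3L, 3R and X were cut into 357 windows of the same length, of which the complex is one. For GAF the complex held 18 disc peaks (median over windows 17) and 44 embryo peaks (median 17). In the disc list 153 windows held more GAF peaks, and in the embryo list 3 did. For Yki it held 7 disc peaks (median 18), with more in 311 windows, and 16 embryo peaks (median 10), with more in 36 windows. The 3 H3K4me3 peaks stood against a median of 17, and 338 windows held more.

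**Figure D1:**
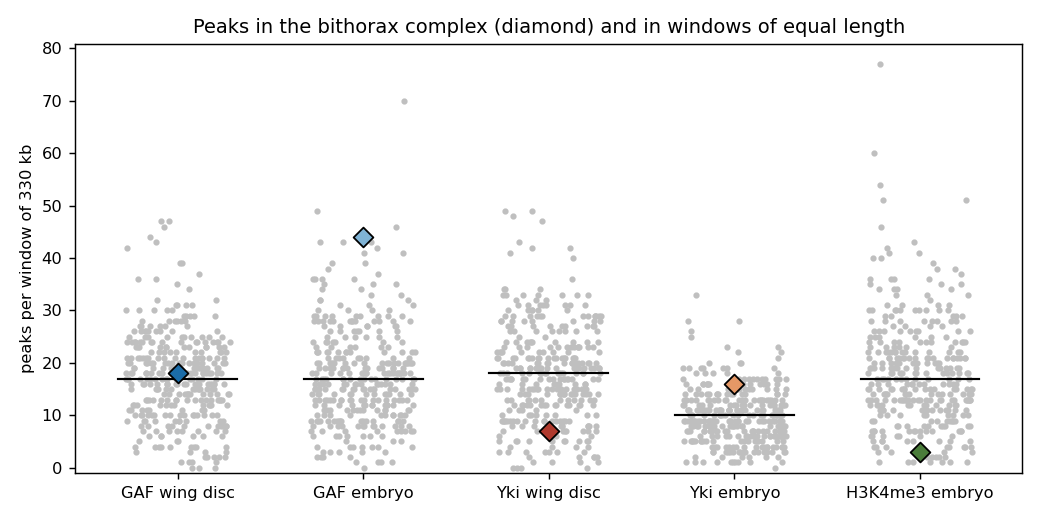
Number of peaks per window of 330 kb in each list (vertical axis); the coloured diamond is the bithorax complex, grey points are the other windows and the black bar is the median over 357 windows. The complex sits near the median for disc GAF (18 peaks), near the top for embryo GAF (44) and near the bottom for H3K4me3 (3).

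Many embryo GAF peaks lay close together: 15 of the 43 gaps between neighbours were under 1 kb, against 2 of 17 gaps between disc GAF peaks. More peaks in the same window give shorter gaps in any case, and shares over the whole lists are not given here. With peaks of a list less than 1 kb apart joined, a count chosen after the data were seen, the complex held 16 disc GAF peaks, with more in 104 windows, and 29 embryo GAF peaks, with more in 2 windows. By bases the contrast between tissues was smaller, at 16753 bp under disc GAF peaks (more in 168 windows) and 30746 bp under embryo GAF peaks (more in 35 windows). The embryo and disc lists may have been called in different ways, and this cannot be told apart from a difference between tissues.

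The counts differed on either side of the complex. The equal window below the complex held 19 disc and 10 embryo GAF peaks, 22 disc and 10 embryo Yki peaks, and 25 H3K4me3 peaks. The window above held 20 disc and 20 embryo GAF peaks, 21 disc and 9 embryo Yki peaks, and 22 H3K4me3 peaks. The stretch from 2500000 to 2800000 of 3R, which holds most of the Antennapedia complex, the other Hox cluster, was closer in H3K4me3, with 3 peaks. Per 100 kb the bithorax complex held 5.45 disc and 13.3 embryo GAF peaks and 2.12 disc and 4.85 embryo Yki peaks, against 8.67 disc and 8.67 embryo GAF peaks and 5 disc and 4.67 embryo Yki peaks in that stretch. These differences were not tested.

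Along the complex, each peak was put in a stretch by its midpoint. Ubx, 78.0 kb long, held 4 disc and 10 embryo GAF peaks, 2 disc and 5 embryo Yki peaks and 2 of the 3 H3K4me3 peaks. Between Ubx and abd-A the annotation of Release 6 (RefSeq, used for names and order only) places the noncoding RNA bxd and the transporter gene Glut3. These 72.0 kb held 4 disc and 3 embryo GAF peaks and 1 disc and 3 embryo Yki peaks. Their counts include the disc GAF, embryo GAF and embryo Yki peaks at the Ubx start, whose midpoints fell just above its approximate end. In abd-A itself, 24.0 kb long, there were 2 disc and 3 embryo GAF peaks, 0 disc and 1 embryo Yki peaks, and 1 H3K4me3 peak. GAF counts differed most between tissues in the 96.0 kb between abd-A and Abd-B, which holds the iab regulatory DNA and the noncoding RNAs iab4 and iab8: 4 disc and 19 embryo GAF peaks, with 2 disc and 4 embryo Yki peaks. Abd-B, 45.0 kb long, held 3 disc and 9 embryo GAF peaks and 1 disc and 3 embryo Yki peaks. The 2.00 kb below Ubx held 1 disc GAF and 1 disc Yki peak, and the 13.0 kb above Abd-B held no peak of any list. Per 10 kb, embryo GAF peaks were densest in Abd-B (2.00) and between abd-A and Abd-B (1.98), and sparsest between Ubx and abd-A (0.417), of the stretches over 10 kb that held any.

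**Figure D2:**
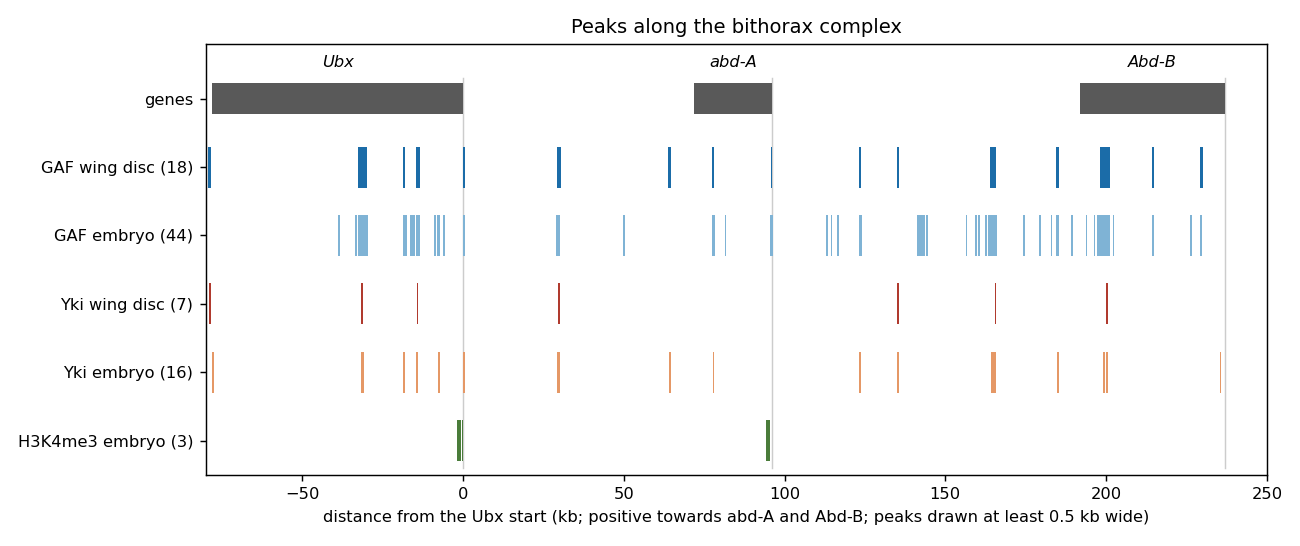
All 88 peaks by list (rows, number of peaks in brackets) against distance from the Ubx start in kb; grey bars are the 3 genes and grey lines their starts. Embryo GAF peaks crowd the stretch between abd-A and Abd-B (19 peaks, against 4 in wing discs). H3K4me3 lies only just inside Ubx and abd-A, whose ends are approximate.

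Embryo H3K4me3 marked the starts of Ubx and abd-A, and no peak was listed at Abd-B. At Ubx there were peaks from 12558217 to 12559403 (1187 bp) and from 12559616 to 12559926 (311 bp), both on the transcribed side of the start, the nearer 74 bp from it. At abd-A a peak from 12654305 to 12655397 (1093 bp) lay 603 bp inside the gene. Both starts are approximate gene ends, so distances and sides at this scale are uncertain. All 3 were narrower than the median H3K4me3 peak of the whole list (1262 bp). Between the abd-A peak and the next H3K4me3 peak, which starts at 12817207 beyond the window, 162 kb held none, and this span includes all of Abd-B. As background, Abd-B has several promoters, whose dm3 positions were not used here, and it is transcribed mainly in the rearmost segments.

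GAF sat on the starts of Ubx and abd-A, as approximately placed here, in both tissues, beside H3K4me3 rather than under it. At Ubx the disc GAF peak ran from 12559981 to 12560591 (score 112.18) and the embryo GAF peak from 12559918 to 12560640. The embryo peak shared 9 bp with the nearer H3K4me3 peak, and the disc peak ended 54 bp short of it. At abd-A the disc GAF peak ran from 12655660 to 12656255 (score 181.99) and the embryo peak from 12655606 to 12656267. The disc peak lay 262 bp and the embryo peak 208 bp from H3K4me3. Yki was listed at the Ubx start in embryos, from 12560101 to 12560460, inside the GAF peak. No disc Yki peak came nearer to it than 14.1 kb. At the abd-A start Yki was listed in neither tissue: the nearest peaks were 39.1 kb away in discs and 18.1 kb away in embryos. The higher end of Abd-B had no GAF peak within 5 kb; the nearest lay 7 kb away in discs and 7.12 kb away in embryos, while an embryo Yki peak from 12795337 to 12795688 lay 1.31 kb inside the gene.

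**Figure D3:**
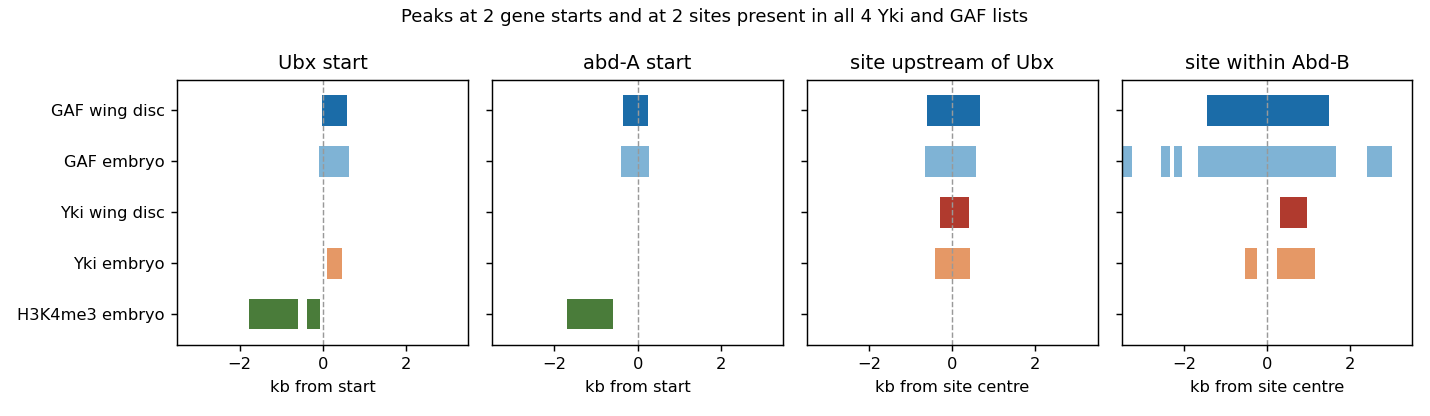
Peaks of the 5 lists (rows) in 7 kb around the Ubx and abd-A starts and around 2 sites present in all 4 Yki and GAF lists; the horizontal axis is distance in kb from the start or from the centre of the site, and negative values point along the direction of transcription. H3K4me3 lies on the transcribed side of both starts, as approximately placed here, next to GAF, and is missing at both of the other sites.

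Touching peaks of the 4 Yki and GAF lists joined into 50 sites in the complex. All 4 lists were present at 5 of them, or 10%, against 13.5% of the 11285 sites of the genome. The 5 sites lay within Ubx from 12527293 to 12530452 and from 12545298 to 12546568, upstream of Ubx from 12589035 to 12590363, between abd-A and Abd-B from 12723740 to 12726037, and within Abd-B from 12757935 to 12761249. Their distances from the nearest of the 3 gene starts were 31.1 and 14.1 kb inside Ubx and 29.7 kb upstream of Ubx. The others lay 68.9 kb upstream of abd-A and 37.4 kb inside Abd-B. Only the higher end of Abd-B was used as its start, so distances to its other promoters are not known here. As background, the bxd PRE lies upstream of Ubx and the Fab-7 boundary with its PRE lies between abd-A and Abd-B. The positions of such elements were not used here, so no site was matched to one.

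The same 5 sites held the 5 highest disc GAF scores of the complex. Of the 8 disc GAF peaks of the complex in the top quartile of the list by score, 8 met embryo GAF and 5 met disc Yki; over the whole list 99.5% of such peaks met embryo GAF and 90.7% met disc Yki. The score is the authors' own and its scale is not given, so it only ranks peaks within a list. Within Ubx the disc GAF peak from 12527982 to 12530052 scored 544.73 and ranked 85 of 6328, and the one from 12545403 to 12546568 scored 287.76 and ranked 886. Within Abd-B the peak from 12758148 to 12761092 scored 455.63 and ranked 233. Between abd-A and Abd-B the peak from 12723955 to 12725864 scored 373.45 and ranked 508, and upstream of Ubx the peak from 12589097 to 12590363 scored 311.72 and ranked 762. These are therefore among the higher disc GAF peaks of the whole genome: 8 of the 18 disc GAF peaks of the complex reached the upper quartile of the list (159.71), and their median was 127.92, against 34.705 over the list.

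At these sites the embryo GAF peaks were broad, but only 3 of the 5 widest of the complex lay there. The others were 1740 bp from 12701871 to 12703610 and 1385 bp from 12541259 to 12542643. At the 5 sites the embryo GAF peaks were 3315 bp within Abd-B, 3160 and 1197 bp within Ubx, 2298 bp between abd-A and Abd-B and 1244 bp upstream of Ubx. The median of the list was 583 bp. Of the 5 widest embryo Yki peaks of the complex, 4 lay there, led by 1649 bp from 12724141 to 12725789, which ranked 94 of 3749. It was followed by 910 bp within Abd-B (12759833 to 12760742), 843 bp upstream of Ubx (12589285 to 12590127) and 794 bp within Ubx (12528346 to 12529139). The fifth of them, 555 bp from 12624218 to 12624772 in the stretch between Ubx and abd-A, lay on a disc GAF peak outside the 5 sites. The other 2 embryo Yki peaks at the 5 sites were below the list median of 438 bp: 415 bp from 12545544 to 12545958 in the second Ubx site and 281 bp from 12759064 to 12759344 in the Abd-B site. None of the 5 sites overlapped H3K4me3, from which they lay 11.6 kb away or more. Over the whole genome 65.8% of the 1525 sites with all 4 lists overlapped an H3K4me3 peak. With 3 H3K4me3 peaks in the complex few sites could meet one, and a count of 0 of 5 allows a share of up to 60%. The median width of the 5 sites was 2298 bp, against 2025 bp for all 1525 sites with all 4 lists.

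Disc Yki peaks of the complex were few. The 7 peaks were at all 5 sites, at a sixth site from 12695057 to 12695367 between abd-A and Abd-B, and just below Ubx from 12481152 to 12481600. By score the order was 30.29 upstream of Ubx (12589412 to 12590094, rank 579 of 6491), 28.68 within Ubx (12528438 to 12529003, rank 680), 25.17 within Abd-B (12759908 to 12760562, rank 974) and 21.63 at the sixth site (12695074 to 12695345). The remaining scores were 19.23 below Ubx, 18.70 for the second site within Ubx, and 9.99 from 12725414 to 12725670, between abd-A and Abd-B. That last value was low in its list (rank 5033), although disc GAF there scored 373.45 and the embryo Yki peak over it was the widest of the complex. At the sixth site the order was the other way: Yki ranked 1391 of 6491 and disc GAF, with 16.25, ranked 4499 of 6328, with no embryo GAF peak and an embryo Yki peak of 309 bp (12695057 to 12695365). Across the 7 sites the Spearman correlation of the disc Yki and GAF scores was 0.32, and across all 4089 disc Yki peaks on GAF it was 0.34. These are descriptions, since the points share a tissue and come from 1 list each.

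At 5 further sites GAF was listed in both tissues and Yki in embryos alone. This was 10% of the sites of the complex, against 3.48% of the sites of the genome. The 5 sites were the Ubx start, a site within Ubx from 12541259 to 12542643 (disc GAF score 57.73), one within abd-A from 12637393 to 12638280 (235.31), and 2 between abd-A and Abd-B, from 12683067 to 12683944 (111.52) and from 12744335 to 12745272 (164.17). The embryo Yki peaks in them were narrow: 338 bp (12541445 to 12541782), 360 bp at the Ubx start, 333 bp (12637614 to 12637946), 356 bp (12683296 to 12683651) and 357 bp (12744749 to 12745105), each below the list median of 438 bp. GAF alone was listed in both tissues at 3 sites, the abd-A start, 12774339 to 12774724 (36.5) and 12789198 to 12789999 (143.66), the last 2 within Abd-B. Such sites were 6% of those of the complex and 9.26% of those of the genome. Together, of 13 sites with GAF in both tissues, 5 held disc Yki and 10 held embryo Yki. Over the genome the shares at such sites were 59.3% and 54.3%.

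Embryo GAF peaks without a disc counterpart made up most of the complex's sites. Of 44 embryo GAF peaks, 31 overlapped no disc GAF peak, and 30 of these formed sites of their own, out of 50 in all, where such sites were 21.5% of 11285 over the genome. Between abd-A and Abd-B there were 16 of the 31, within Ubx 7, within Abd-B 6, and 1 each in abd-A and between Ubx and abd-A. They were narrow, with a median of 330 bp (200 to 1740 bp), against 878 bp (237 to 3315 bp) for the 13 that met a disc GAF peak. The widest, 1740 bp from 12701871 to 12703610 between abd-A and Abd-B, ranked 821 of 6470 and met no peak of any other list. Of the 31, 14 lay within 5 kb of the midpoint of a disc GAF peak, and the share over the whole list is not given here. From 12716289 to 12726037 there were 7 embryo GAF peaks over 9.75 kb with 1 disc GAF peak among them, and from 12734269 to 12762607 there were 11 over 28.3 kb with 2. Disc Yki was present at 0 of the 31 sites with GAF in embryos and not in discs, which allows a share of up to 9.68%, against 1.26% over the genome. Embryo Yki was present at 1 of them (12552312 to 12552609, within Ubx), against 6.96%.

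**Figure D4:**
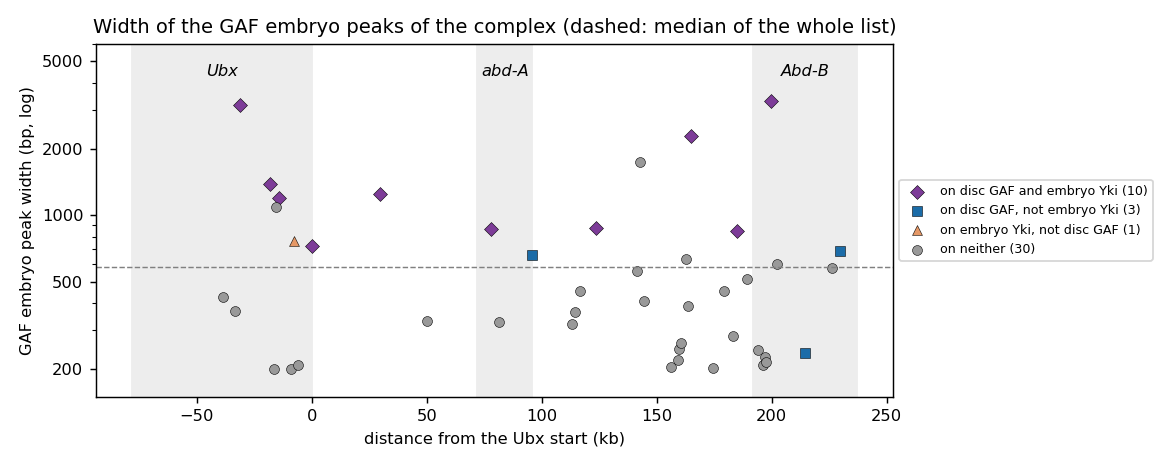
Width of each of the 44 embryo GAF peaks in bp (vertical axis, log scale) against distance from the Ubx start in kb, with shaded genes and a dashed line at the median of the whole list (583 bp). Peaks that also held disc GAF and embryo Yki (10, diamonds) are all above the line, and most of the 30 peaks on neither are below it. Over the whole list, 2.22% of embryo GAF peaks in the narrowest quartile and 85.7% in the widest met embryo Yki.

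Disc GAF and disc Yki without their embryo counterparts were few. Of 18 disc GAF peaks 4 met no embryo GAF peak: those below Ubx (12480851 to 12481724, score 38.67), a neighbouring pair between Ubx and abd-A (12623767 to 12624083, 15.85, and 12624165 to 12624618, 12.69), and the sixth site named above (16.25). Their median score was 16.05 (12.69 to 38.67), against 173.08 (10.05 to 544.73) for the 14 that met one, so the ranges overlapped. The disc Yki peak below Ubx was the only 1 of 7 without an embryo Yki peak. An embryo Yki peak from 12481942 to 12482173 lay near it but did not touch it, and with the peak at the higher end of Abd-B it made the 2 embryo Yki peaks that met no other list.

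Most Yki peaks of the complex lay on GAF peaks, as they did over the genome. In discs 7 of 7 Yki peaks lay on GAF (Wilson 95% interval 64.6 to 100%; whole list 63.0%), and in embryos 12 of 16, or 75% (50.5 to 89.8; whole list 68.8%). Across tissues, 5 of 7 disc Yki peaks met embryo GAF (whole list 43.2%) and 13 of 16 embryo Yki peaks met disc GAF (72.2%). In the other direction 7 of 18 disc GAF peaks carried Yki (38.9%, 20.3 to 61.4; whole list 51.8%), as did 11 of 44 embryo GAF peaks (25%, 14.6 to 39.4; 32.7%). Intervals cover counting error only and treat neighbouring peaks of 1 locus as independent, and none of these differences was tested.

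Sharing between tissues was read in both directions. These count nearly the same overlaps (14 and 13 for GAF, 6 for Yki in each), so their difference follows from the fewer disc peaks. Each share is therefore set beside its whole-list share. Disc peaks were mostly found in the embryo lists: 14 of 18 for GAF (77.8%, 54.8 to 91.0; whole list 61.1%) and 6 of 7 for Yki (85.7%, 48.7 to 97.4; 38.7%). Embryo peaks were mostly absent from the disc lists: 13 of 44 GAF peaks met a disc GAF peak (29.5%, 18.2 to 44.2; 59.2%) and 6 of 16 Yki peaks met a disc Yki peak (37.5%, 18.5 to 61.4; 66.2%). Over the whole list narrower embryo GAF peaks met disc GAF less often, so the share was also read by quartile of width. Among embryo GAF peaks in the narrowest quartile of the list 1 of 17 met disc GAF (29.7% of that quartile over the list), in the second 0 of 10 (46.2%), in the third 6 of 9 (69.8%) and in the widest 6 of 8 (91.2%).

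H3K4me3 was nearly absent from Yki and GAF peaks of the complex. The window held 3 H3K4me3 peaks over 2591 bp (0.785% of its length), so few peaks could overlap one. The low shares below largely restate that count. H3K4me3 overlapped 0 of 18 disc GAF peaks, which allows a share of up to 16.7% (whole list 37.2%). Of embryo GAF peaks it overlapped 1 of 44 (2.27%, 0.402 to 11.8, whole list 24.6%), by the 9 bp at Ubx. It overlapped 0 of 7 disc Yki peaks, which allows up to 42.9% (52.2%), and 0 of 16 embryo Yki peaks, which allows up to 18.8% (45.2%). Of the 3 H3K4me3 peaks 1 met embryo GAF, and over that list 24.6% did. H3K4me3 was not analysed in wing discs, so disc peaks are set against embryo chromatin.

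**Figure D5:**
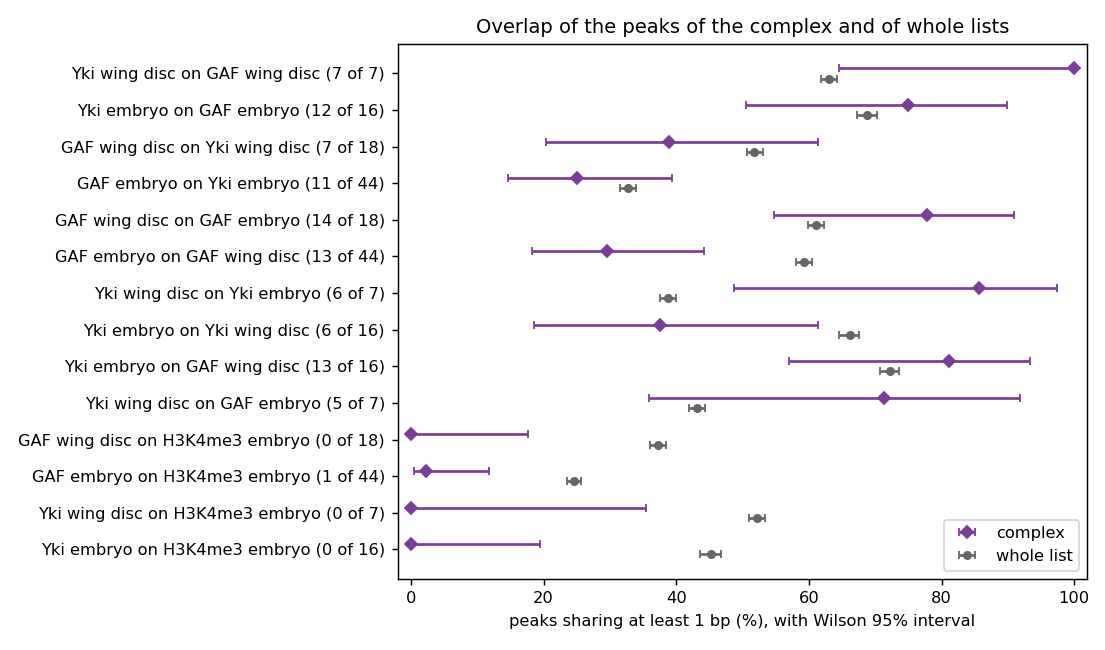
Share of peaks (%, horizontal axis) that overlap a second list by at least 1 bp, for the complex (diamonds, counts in brackets) and the whole list (circles), with Wilson 95% intervals. In the complex disc peaks meet embryo peaks of the same protein more often than the reverse, as disc peaks are fewer. The 4 H3K4me3 rows of the complex lie between 0 and 2.27%, where the window holds 3 H3K4me3 peaks.

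Where peaks of 2 lists met, their centres were close. Midpoints of disc and embryo GAF peaks differed by a median of 51.75 bp over 14 pairs (112.75 bp over the whole list), and those of disc and embryo Yki peaks by 36.5 bp over 6 pairs (102.5 bp). All 6 of these disc Yki peaks lay wholly inside the embryo Yki peak, where 27.3% did over the list. Within a tissue, Yki and GAF midpoints differed by a median of 208.5 bp over 7 pairs in discs (213 bp over the whole list) and 77.75 bp over 12 pairs in embryos (194.5 bp). The Yki peak lay wholly inside the GAF peak in 6 of 7 disc pairs (67.8% over the list) and in 12 of 12 embryo pairs (89.8%). In the Abd-B site disc Yki ran from 12759908 to 12760562, within disc GAF from 12758148 to 12761092. Embryo Yki had 2 peaks there, from 12759064 to 12759344 and from 12759833 to 12760742, within embryo GAF from 12757935 to 12761249.

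Long spans of the complex held no peak of a list. The widest gap between neighbouring peaks was 45.8 kb for disc GAF, from 12481724 to 12527511 in the part of Ubx farthest from its start. For embryo GAF it was 28.4 kb, from 12560640 to 12589035, and the first embryo GAF peak, at 12521233, left 41.2 kb free at the lower edge of the window. Disc Yki left 105 kb free, from 12590094 to 12695074, which includes all of abd-A, and embryo Yki left 46.2 kb free, from 12482173 to 12528346. The median gap was 13.4 kb for disc and 2.61 kb for embryo GAF, and 38.9 kb for disc and 14 kb for embryo Yki.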

How the data were processed

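The libraries were made by transposase tagmentation with PCR and sequenced on an Illumina instrument, per the labels' protocols. Base calls came from CASAVA 1.7.0, aligners named are BWA and Bowtie and the build is dm3, per the submitters' processing notes. The authors deposited 5 peak lists with start (counted from 0, here from 1) and end in bp. Disc peaks carry names that begin with MACS, a peak caller, and an authors' score in the deposited lists, whose scale is not stated. For the embryo caller, thresholds, input use and the joining of replicates: not given in the sources used here.

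Overlap meant at least 1 bp shared. For a count of 0 the share allowed was 3 divided by the number of peaks or sites. That is a rough limit and differs from the Wilson interval drawn for the same count. Counts, medians, ranks and Wilson intervals were computed with Python 3.11.15, numpy 2.4.6, pandas 2.3.3, scipy 1.17.1 and matplotlib 3.10.9, and the overlap step was checked on simulated lists. No test was run, as each antibody and tissue has 1 list. The 3 genes matched the RefSeq table (Release 6) by symbol, and its coordinates were not used. No sequence is shown, since no dm3 sequence was used here. Peaks named were the 5 highest by score (discs) or width (embryos) per list, H3K4me3 peaks, sites of all 4 lists, embryo Yki peaks, peaks nearest to gene starts and the widest gaps, and other peaks were named after their values were seen. Window, genes and rules were chosen with earlier results of these data known.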

Additional observations from a re-analysis of the deposited data

How the results depend on the processing

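No paired analysis was possible because each antibody and tissue had 1 deposited list, so no replicate could be left out either. Of 73 recomputed values, 56 stayed within 1.5 times the count or within the interval of the share. Counts moved when peaks less than 1 kb apart were joined (29 embryo GAF, chosen after seeing the data). They moved with 50 kb more on each side (17 disc Yki, 14 H3K4me3). In the upper 50% of each list by score or width they moved as well (17 embryo GAF, 5 embryo Yki, 0 H3K4me3). That setting keeps about 50% of a whole list by construction, so lower counts are built into it. A reciprocal overlap of 50% put Yki on GAF at 42.9% in discs (whole list 20.3%) and 12.5% in embryos (15.4%), and GAF on Yki at 16.7% in discs (20.8%) and 4.55% in embryos (8.93%). Embryo GAF on H3K4me3 was 0% under that overlap, with midpoints within 500 bp and in the upper 50%. Embryo GAF on disc GAF was 70.6% in the upper 50%, and the whole-list share under that setting is not given here. Over the whole list 69.8% of embryo GAF peaks in the third quartile of width and 91.2% in the widest met any disc GAF peak. In the wider window disc Yki lay on disc GAF in 52.9%, on embryo Yki in 41.2% and on H3K4me3 in 52.9%. The causes were not tested. Depth and calling thresholds are unknown, so an unlisted peak does not show that a site was unbound.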
